A study of Mus musculus with 24 samples.

Results

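*Csf1* and 9 genes that mark macrophages and other myeloid cells were followed in dorsal root ganglia (DRGs) after sciatic nerve lesion in *Nfil3* KO and wildtype (WT) mice. The members were chosen by gene name on the array, namely *Csf1*, *Csf1r*, *Aif1*, *Cd68*, *Cx3cr1*, *Emr1*, *Tyrobp*, *Trem2*, *Ptprc* and *Mrc1*, which gave 10 of 27398 gene names and 19 of 41174 probes. The study asked how the loss of the transcription factor NFIL3 alters the expression response of DRGs to nerve injury. All mice were adult C57BL/6J males, and KO mice and their WT littermates derived from a floxed *Nfil3* allele that had been deleted in the germ line with a Cre driven by a CMV promoter, so that the deletion was not limited to neurons. In the lesioned groups the sciatic nerve was injured and its ends were joined again, and L4 and L5 DRGs were taken 2 or 5 days later. Control DRGs came from the side without injury, and the labels do not tie a control to a particular lesioned sample. There were 24 samples in 6 groups of 4, WT control, WT day 2, WT day 5, KO control, KO day 2 and KO day 5. They were hybridized to 12 Agilent 4x44K arrays on 3 slides, with a different sample in the Cy3 and the Cy5 channel of each array.

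CSF1 is a secreted growth factor on which tissue macrophages depend for survival and proliferation, and it is known to be made by sensory neurons after nerve injury. It binds the receptor tyrosine kinase CSF1R on macrophages and their relatives, a receptor that also takes IL34 as a ligand. DRGs hold resident macrophages that lie close to neurons and their satellite glia, and blood monocytes can enter the ganglion after an injury of its nerve.

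Values are log2 intensities after background correction and quantile normalization, each gene was read from its brightest probe on average, and changes are log2 differences with their SE from limma. Genes were called at a Benjamini-Hochberg adjusted p of 0.05 over all 41174 probes, and a bare value in parentheses after a sample or setting is the adjusted p without that sample or under that setting. *Nfil3* was lower in all 12 KO samples, between 2.82 and 7.59, than in the 12 WT samples, between 8.44 and 11.08, and it was well above background in 5 of 12 KO samples. The highest of these KO values belonged to KO control replicate 4, for which the title gives control and another label gives day 5. It was used as control, and without it all 10 members were again called higher at day 5 in KO. Between 54.5% and 72.3% of the probes of a sample were well above background and no spot was saturated. The labels name the tissue DRG neurons, but the methods describe whole DRGs. The myeloid marker *Itgam* was well above background in all 24 samples, and so was the brightest probe of every member. T cell markers varied, with *Cd3d*, *Cd3e* and *Lck* well above background in 24 samples and *Cd8a* in 23. *Cd5* was so in 22, *Cd4* in 17, *Cd2* in 14 and *Cd3g* in 1. In such tissue RNA, more cells of a type and more RNA per cell cannot be told apart. The members other than *Csf1* stand for resident macrophages and entering myeloid cells alike, and none of them separates these sources. *Csf1* is a secreted factor and not such a marker, and which cells carried it cannot be told from whole DRGs.

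The sequences that these measurements rest on are given for the members the results turn on. The probe of *Tyrobp* was mapped by the array annotation to chr7:31200651-31202378 on the plus strand of mm9, a span of 1728 bases for 60 letters, so it crosses at least 1 splice junction. It is shown as the only brightest probe of a member that is split over the genome.
Tyrobp probe: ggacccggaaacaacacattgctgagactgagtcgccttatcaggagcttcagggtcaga

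The brightest probes of the other members each covered 60 contiguous bases of mm9. That of *Csf1* lay at chr3:107544333-107544392 and that of *Trem2* at chr17:48491522-48491581. That of *Emr1* lay at chr17:57622843-57622902, that of *Cx3cr1* at chr9:119959018-119959077 and that of *Aif1* at chr17:35307959-35308018. That of *Cd68* lay at chr11:69478314-69478373, that of *Mrc1* at chr2:14253304-14253363 and that of *Ptprc* at chr1:139960089-139960148. *Csf1* and *Ptprc* were each read from 10 spots per array and the other members from 1. Which exon a probe lies in was not analysed here.

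NFIL3 is a bZIP repressor, and PU.1 is an ETS family factor that defines the macrophage lineage, so the promoters of the members were searched on both strands for TTANGTAA (written NFIL3 letters here) and AGGAAGT (ETS letters). RefSeq promoters of GRCm38.p6, 250 bases before to 50 bases after a start site, were at hand for 7 of the 10 members in 8 windows, and not for *Csf1r*, *Tyrobp* and *Emr1*. The NFIL3 letters, in which N stands for any base, stood in 1 member and in 2.72% of all 26994 genes with a promoter. By window this was 2.32% of all 32817 promoters. That member was *Cd68*, at 165 bases before the start and with G as the open base. The ETS letters stood in 2 members, *Ptprc* at 113 and 58 bases before its first start and *Mrc1* at 211 bases before its start, and in 9.35% of all promoters. The 2 windows of *Ptprc* overlapped, and its match at 58 bases stood also in the second window, at 237 bases before that start. Apart from this no match of a member overlapped another. The letters are a description of these windows and no evidence of binding. The 250 bases before the start are shown for *Csf1*, whose level changed most among the members and whose window held neither string, and for the 3 members with a match, on the strand of the gene and with each match in capitals.
Csf1 (chr3:107760470-107760719, minus strand): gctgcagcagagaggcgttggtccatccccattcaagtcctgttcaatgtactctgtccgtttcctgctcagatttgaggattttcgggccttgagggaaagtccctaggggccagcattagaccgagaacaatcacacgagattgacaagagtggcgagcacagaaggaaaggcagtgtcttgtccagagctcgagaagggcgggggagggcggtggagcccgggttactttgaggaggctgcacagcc
Cd68 (chr11:69666171-69666420, minus strand, NFIL3 letters): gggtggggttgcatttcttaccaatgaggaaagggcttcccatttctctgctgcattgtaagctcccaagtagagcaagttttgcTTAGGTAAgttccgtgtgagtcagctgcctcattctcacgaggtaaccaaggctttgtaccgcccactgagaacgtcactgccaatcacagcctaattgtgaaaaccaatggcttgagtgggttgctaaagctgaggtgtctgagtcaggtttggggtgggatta
Ptprc (chr1:138175306-138175555, minus strand, ETS letters): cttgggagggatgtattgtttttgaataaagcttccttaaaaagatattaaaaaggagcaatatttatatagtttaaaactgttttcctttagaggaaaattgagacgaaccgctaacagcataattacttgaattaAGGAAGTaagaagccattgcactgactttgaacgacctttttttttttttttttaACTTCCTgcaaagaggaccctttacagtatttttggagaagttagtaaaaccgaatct
Mrc1 (chr2:14229164-14229413, plus strand, ETS letters): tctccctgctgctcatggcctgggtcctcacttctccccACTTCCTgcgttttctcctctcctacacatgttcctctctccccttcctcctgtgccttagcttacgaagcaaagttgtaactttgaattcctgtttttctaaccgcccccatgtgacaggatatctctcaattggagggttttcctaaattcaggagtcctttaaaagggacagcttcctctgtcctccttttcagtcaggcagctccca

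After the lesion, *Csf1* had risen by day 2, and its receptor was called higher at day 5 only. *Csf1* was 5.58-fold higher at day 2 and 7.04-fold higher at day 5 over both genotypes, whereas *Csf1r* was 1.19-fold higher at day 2, which did not pass the test, and 3.40-fold higher at day 5. All 10 members were called higher at day 5 in WT and in KO. At day 2, 6 of 10 were called in WT and 4 of 10 in KO. No member was called lower at either day, and none was called for KO against WT. That comparison called at most 0.0146% of all genes at any time point, so equal levels were not shown.

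*Csf1* encodes the ligand. In WT control its log2 intensity was 8.43, 8.685, 8.24 and 8.82, at day 2 it was 11.23, 11.55, 11.11 and 10.999, and at day 5 it was 11.63, 11.50, 11.45 and 11.35. In KO control it was 8.58, 8.56, 8.48 and 8.84, at day 2 it was 11.16, 10.91, 10.34 and 11.18, and at day 5 it was 11.08, 11.44, 11.41 and 11.31. Every lesioned sample lay above every control, while the samples of day 2 and day 5 overlapped. Over both genotypes *Csf1* rose by 2.48 ± 0.12 (SE) at day 2 (adjusted p = 7.09e-12) and by 2.82 ± 0.12 at day 5 (adjusted p = 7.46e-13). The step from day 2 to day 5 was 0.34 with a 95% interval of 0.09 to 0.59, and it was not called (adjusted p = 0.154). *Csf1* was the only one of the 10 members not called for this step.

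*Csf1r* encodes the receptor for CSF1 and IL34, and its brightest probe lay at chr18:61290384-61290443 of mm9. In WT control its log2 intensity was 8.45, 8.24, 8.72 and 9.15, at day 2 it was 8.98, 9.03, 9.30 and 8.69, and at day 5 it was 10.46, 10.34, 10.38 and 10.68. In KO control it was 8.50, 8.24, 8.64 and 8.98, at day 2 it was 9.01, 8.28, 8.44 and 9.22, and at day 5 it was 10.04, 10.41, 10.45 and 10.26. Control and day 2 overlapped in both genotypes, and all 8 samples of day 5 lay above all others. The change of *Csf1r* at day 2 was 0.25 ± 0.15 (SE) over both genotypes, with a 95% interval of -0.06 to 0.57 (adjusted p = 0.274). At day 5 it rose by 1.76 ± 0.15 (adjusted p = 3.17e-08), and the step from day 2 to day 5 was 1.51 (adjusted p = 5.71e-06). Its other 2 probes, well above background in all 24 samples, gave 0.12 and 0.28 at day 2 and rose by 1.41 and 1.07 at day 5.

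**Figure D1:**
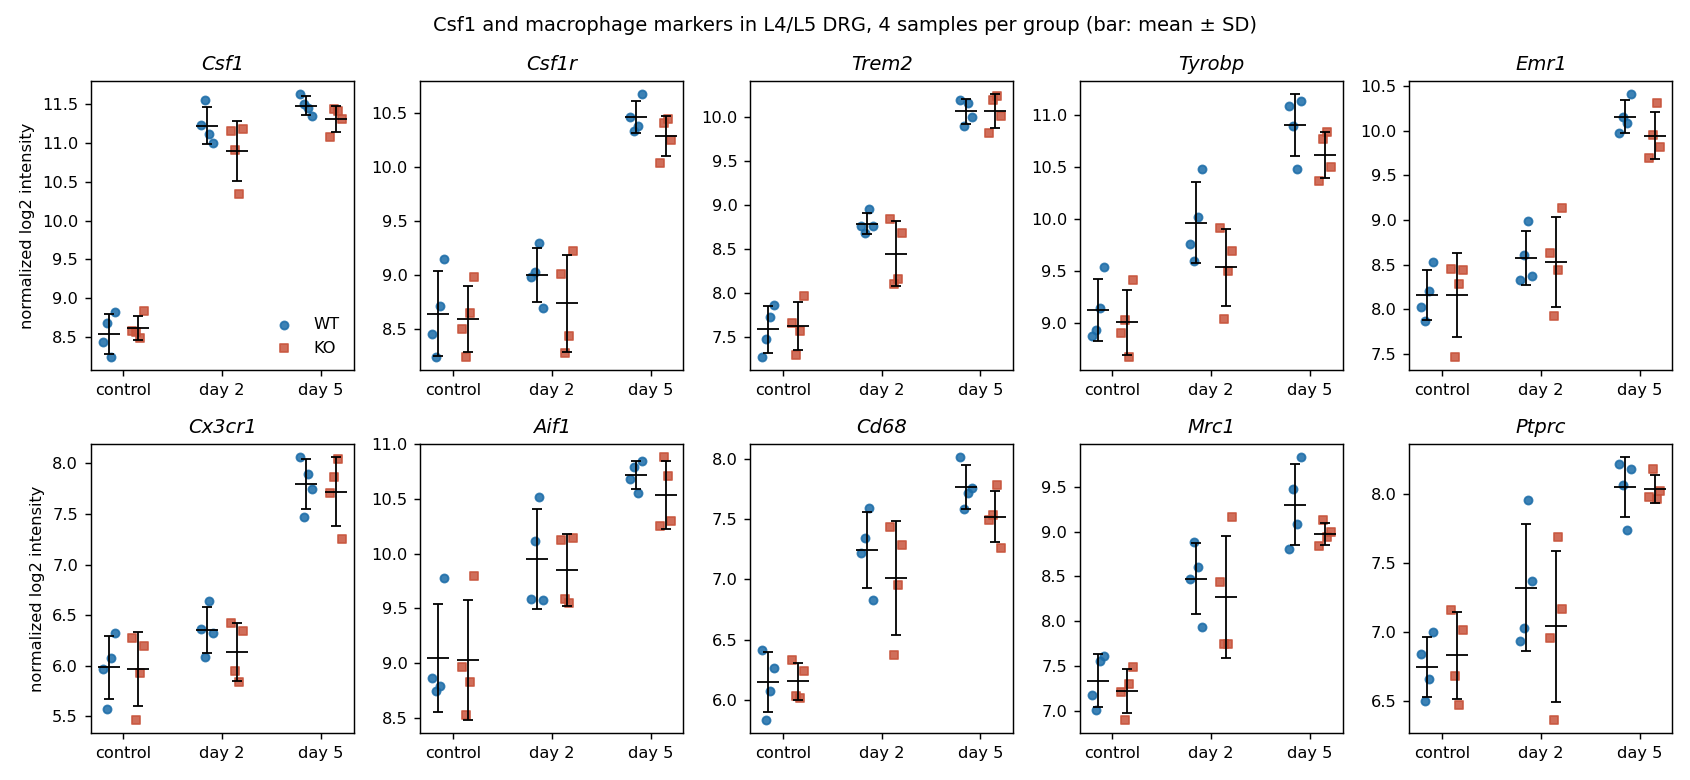
Normalized log2 intensity of the 10 members in control DRGs and at day 2 and day 5 post-lesion, with 1 point per sample (circles WT, squares KO, 4 per group) and bars for mean ± SD. *Csf1*, *Mrc1* and *Trem2* lie above all controls of both genotypes in every sample of day 2, and the other members overlap them. At day 5 all 10 members lie above all controls. *Csf1r*, *Emr1*, *Cx3cr1* and *Trem2* then also lie above all samples of day 2.

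The ligand and the receptor were then compared directly. From day 2 to day 5 *Csf1r* moved by 1.17 log2 units more than *Csf1*, 1.21 in WT and 1.14 in KO. An exact two-sided permutation test of the day labels within genotype, with 8 samples at each day, gave p = 0.000408, the smallest that its 4900 arrangements allow. This pair was chosen after its values were seen and it was the only pair tested. Among the members, *Csf1* had the largest share of its day 5 change by day 2 (88.1%) and *Csf1r* the smallest (14.4%). Testing these extremes on the same samples favours a small p, so the p-value describes this pair and is not independent evidence. The difference was between 1.04 and 1.2 under the other ways of correcting and scaling the intensities, with the same p and the same limit.

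The members differed in how much of their change was present early. By day 2 *Csf1* had 88.1% of its log2 change at day 5, *Cd68* 65.4%, *Mrc1* 58.8% and *Aif1* 54.4%. *Trem2* had 41.1%, *Tyrobp* 40.4% and *Ptprc* 31.3% of theirs. *Emr1* had 20.8%, *Cx3cr1* 15.2% and *Csf1r* 14.4%. These shares describe means, and neighbours in this order were not tested against each other.

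**Figure D2:**
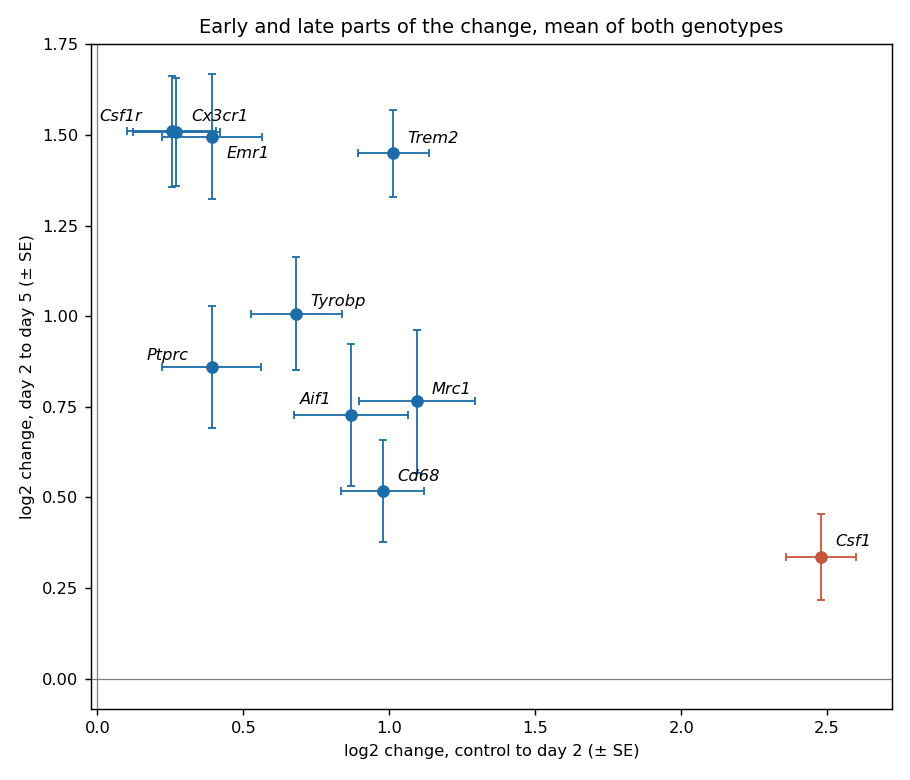
Log2 change from control to day 2 (x axis) and from day 2 to day 5 (y axis) of each member, as the mean of both genotypes with SE bars. *Csf1* lies apart at 2.48 and 0.34, and *Csf1r*, *Cx3cr1* and *Emr1* lie at 0.25 to 0.39 and about 1.5.

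Of all genes on the array, 9.39% were called higher at day 2 and 10.2% at day 5 over both genotypes, against 6 and 10 of the 10 members. For the single genotypes the shares of all genes called higher were 5.16% in WT and 5.54% in KO at day 2 and 6.43% in WT and 6.14% in KO at day 5. From day 2 to day 5, 4 members were called higher in WT, where 0.599% of all genes were, and 5 in KO, where 0.756% were. Over both genotypes 9 members were called for this step, beside 2.32% of all genes. The median change of the members was 0.77 at day 2 and 1.77 at day 5, and that of all genes was -0.02 and -0.03. The members were chosen with earlier results of these data known. They were also well above background in all 24 samples, whereas all genes include many at background. These shares, and those of the next paragraph, are therefore a description and not a test.

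Without regard to the fit, all 8 samples of day 2 lay above all 8 controls for 3 members, *Csf1*, *Mrc1* and *Trem2*, and for 3.73% of all genes. All samples of day 5 lay above all controls for each of the 10 members and for 5.62% of all genes. All samples of day 5 lay above all of day 2 for 4 members, *Csf1r*, *Cx3cr1*, *Emr1* and *Trem2*, and for 0.951% of all genes.

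Among the 9 markers, *Trem2* had the largest change from control to day 5 over both genotypes. TREM2 is a lipid-sensing receptor of macrophages and microglia that signals through the adaptor TYROBP. In WT control its log2 intensity was 7.27, 7.48, 7.74 and 7.87, at day 2 it was 8.77, 8.69, 8.96 and 8.76, and at day 5 it was 10.20, 9.91, 10.16 and 10.002. In KO control it was 7.66, 7.30, 7.57 and 7.97, at day 2 it was 8.84, 8.11, 8.16 and 8.68, and at day 5 it was 9.82, 10.20, 10.24 and 10.02. The days did not overlap in either genotype. *Trem2* rose by 1.01 ± 0.12 (SE) at day 2 (adjusted p = 3.83e-06) and by 2.46 ± 0.12 at day 5 (adjusted p = 7.56e-12), which is 5.51-fold. Its second probe gave 0.89 and 2.04.

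*Tyrobp* encodes that adaptor, which carries an activating signal motif into several myeloid receptors. Its log2 intensity ran from 8.68 to 9.54 in the 8 controls, with a median of 8.99, from 9.04 to 10.48 at day 2, with a median of 9.72, and from 10.37 to 11.13 at day 5, with a median of 10.80. Day 2 overlapped both control and day 5, since WT day 2 replicate 4 at 10.48 lay level with the lowest WT sample of day 5. *Tyrobp* rose by 0.68 ± 0.16 at day 2 (adjusted p = 0.00324) and by 1.69 ± 0.16 at day 5 (adjusted p = 9.14e-08). At day 2 it was called in WT (adjusted p = 0.0181) and not in KO (adjusted p = 0.144), a contrast that does not show a genotype difference, since the interaction was not called (adjusted p = 1). The WT call was lost without WT control replicate 1 (0.0607), WT control replicate 2 (0.0585) or WT day 2 replicate 4 (0.0667). From day 2 to day 5 it was called in KO (adjusted p = 0.0202), but this was lost when KO day 2 replicate 2 (0.0859) or replicate 2 (0.0761) or 3 (0.0816) of KO day 5 was left out.

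*Emr1* encodes an adhesion receptor that is the classical surface marker of mouse tissue macrophages. Its log2 intensity ran from 7.47 to 8.53 in controls, with a median of 8.25, from 7.92 to 9.13 at day 2, with a median of 8.52, and from 9.69 to 10.41 at day 5, with a median of 10.03. It gave 0.39 ± 0.17 at day 2 (adjusted p = 0.12) and rose by 1.89 ± 0.17 at day 5 (adjusted p = 7.37e-08). Without KO day 2 replicate 2, the sample with the lowest *Emr1* of its day, the day 2 change was 0.49 and was called (adjusted p = 0.0375).

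*Cx3cr1* encodes the receptor for fractalkine, a ligand that neurons carry on their surface. Its log2 intensity ran from 5.47 to 6.32 in controls, with a median of 6.02, from 5.84 to 6.64 at day 2, with a median of 6.34, and from 7.25 to 8.06 at day 5, with a median of 7.80. It gave 0.27 ± 0.15 at day 2 (adjusted p = 0.225) and rose by 1.78 ± 0.15 at day 5 (adjusted p = 2.01e-08). *Emr1* and *Cx3cr1* thus shared with *Csf1r* a day 2 level within the range of the controls or just above it and a day 5 level above all other samples.

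*Aif1* encodes the calcium-binding protein IBA1 of macrophages and microglia. Its log2 intensity ran from 8.52 to 9.80 in controls, from 9.55 to 10.52 at day 2 and from 10.26 to 10.89 at day 5, so control and day 2 overlapped through WT control replicate 4 (9.78) and KO control replicate 4 (9.80). It rose by 0.87 ± 0.20 at day 2 (adjusted p = 0.00281) and by 1.60 ± 0.20 at day 5 (adjusted p = 3.98e-06). In WT at day 2 it was called (0.91, adjusted p = 0.0402), and this was lost without WT control replicate 1 (0.101), 2 (0.117) or 3 (0.115), without WT day 2 replicate 2 (0.108) or 3 (0.146), and with slide as a block (0.0622). In KO at day 2 it was not called (0.83, adjusted p = 0.0614), and it was called without KO control replicate 4 (0.0131), WT control replicate 4 (0.0372), WT day 2 replicate 3 (0.0486) or KO day 2 replicate 3 (0.0445), and in 9 of 19 other ways of processing or fitting the data (adjusted p 0.014 to 0.0905 over the 19).

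*Cd68* encodes a lysosomal glycoprotein of phagocytes and *Mrc1* the mannose receptor CD206, an endocytic receptor of resident macrophages. *Cd68* ran from 5.83 to 6.41 in controls, from 6.37 to 7.59 at day 2 and from 7.26 to 8.02 at day 5, and it rose by 0.98 ± 0.14 at day 2 (adjusted p = 3.52e-05) and by 1.49 ± 0.14 at day 5 (adjusted p = 1.14e-07). *Mrc1* ran from 6.90 to 7.61 in controls, from 7.74 to 9.17 at day 2 and from 8.80 to 9.83 at day 5, and it rose by 1.09 ± 0.20 at day 2 (adjusted p = 0.000378) and by 1.86 ± 0.20 at day 5 (adjusted p = 5.98e-07). *Mrc1* was thus already above all controls at day 2, although its KO samples of that day spanned 7.74 to 9.17. In KO at day 2 the call of *Mrc1* (adjusted p = 0.0183) was lost when KO control replicate 2 (0.0613) or either of the KO day 2 replicates 1 (0.0577) and 4 (0.0705) was left out.

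*Ptprc* encodes CD45, the phosphatase on the surface of all white blood cells. Its log2 intensity ran from 6.47 to 7.16 in controls, from 6.36 to 7.95 at day 2 and from 7.74 to 8.22 at day 5. It gave 0.39 ± 0.17 at day 2 (adjusted p = 0.112) and rose by 1.25 ± 0.17 at day 5 (adjusted p = 1.25e-05), the smallest change of the 10 members at that day. The day 2 change was called without KO day 2 replicate 2 (0.50, adjusted p = 0.0238). It was also called at 2 dimmer probes of *Ptprc*, at 0.41 (adjusted p = 0.0329) and 0.42 (adjusted p = 0.0275).

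From day 2 to day 5, *Aif1* (0.73, adjusted p = 0.0465), *Cd68* (0.52, adjusted p = 0.0497) and *Mrc1* (0.77, adjusted p = 0.0377) passed the test narrowly. With 1 sample left out at a time the call of *Aif1* held in 7 of 24 fits, with adjusted p between 0.0208 and 0.101, that of *Cd68* in 5 of 24, between 0.0219 and 0.116, and that of *Mrc1* in 14 of 24, between 0.00375 and 0.0859. The steps of *Trem2* (1.45), *Tyrobp* (1.01), *Ptprc* (0.86), *Emr1* (1.496), *Cx3cr1* (1.51) and *Csf1r* (1.51) were called in each of these fits.

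The other 9 probes of the members were weaker. Over both genotypes 4 of 9 were called higher at day 2 and 8 of 9 at day 5, and none was called lower. The 1 not called at day 5 was a dim probe of *Ptprc*, well above background in 6 of 24 samples (0.53, adjusted p = 0.554). The second probe of *Cx3cr1*, well above background in 15 of 24 samples, rose by 0.63 at day 5, and that of *Emr1*, in 6 of 24, by 1.21. With the probes of a gene averaged, *Emr1* was no longer called from day 2 to day 5 in WT (adjusted p = 0.0785) or in KO (adjusted p = 0.102).

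Controls were also compared by what shared their array. For 4 of the 8 controls, WT control replicates 2 and 4 and KO control replicates 1 and 4, the other channel held a lesioned sample, and their mean was higher than that of the other 4 controls for all 10 members, by 0.03 (*Cd68*) to 0.57 (*Aif1*) and by 0.30 for *Csf1*. Among these 4, WT control replicate 4 had the lowest share of probes well above background of all samples (54.5%). KO control replicate 4 was the sample with the conflicting label. For *Aif1* they lay at 9.78 and 9.80, while the other WT and KO controls reached 8.86 and 8.96. The array partner cannot be told apart from such traits of single samples. Without these 4 controls all 10 members were called at day 5 in both genotypes. At day 2 in WT 4 members were called instead of 6, with *Tyrobp* (adjusted p = 0.0524) and *Mrc1* (0.0995) lost, and in KO *Mrc1* (0.0771) was lost and *Aif1* (0.014) was called. From day 2 to day 5, 7 members were called instead of 9, with *Cd68* (0.0847) and *Mrc1* (0.0726) lost.

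Slides held unequal numbers of WT and KO samples, 3 and 5, 3 and 5, and 6 and 2. Within each slide all 10 members were higher at day 5 than in control in each genotype that could be compared, by 1.14 to 3.11 in WT and 1.15 to 2.71 in KO on slide 1, by 0.80 to 2.54 in KO on slide 2 and by 1.29 to 2.89 in WT on slide 3. At day 2 all 10 were higher in WT on slides 2 and 3, and in KO 8 of 10 were higher on slide 1, 6 of 10 on slide 2 and 10 of 10 on slide 3. In several of these comparisons a group held a single sample. On slide 3 KO day 2 replicate 4 was compared with KO control replicate 2 alone.

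KO and WT were compared at each time point. None of the 10 members was called in control DRGs, at day 2 or at day 5 (limma, adjusted p = 1 for each member), and none had an unadjusted p under 0.05. Of all genes, 0% were called in control, 0.0146% at day 2 and 0.0109% at day 5. The time*genotype interaction was called for 0 of 10 members and for 0% of all genes. Thus *Nfil3* itself was called neither in control, with means of 8.66 in WT and 4.67 in KO, nor for the interaction. These tests could therefore miss large differences. The paper, which used SAM beside limma, reported a small set of genes that differed between genotypes over time.

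At day 2 the difference of KO minus WT was below 0 for all 10 members, where 47.5% of all genes were. It was -0.43 for *Tyrobp* (95% interval -0.89 to 0.04), -0.34 for *Trem2* (-0.70 to 0.01) and -0.33 for *Csf1* (-0.68 to 0.02), and the other 7 lay between -0.28 and -0.04. The 10 genes were read in the same samples, so this count is not a test. The direction was not the same on each slide, since all 10 were lower in KO on slide 2, whereas 2 of 10 were lower on slide 3. On slide 3, however, KO day 2 replicate 4 was the only KO sample of that day. KO was lower than WT in 8 of 10 members without WT day 2 replicate 3 and in 9 of 10 without KO day 2 replicate 2 or 3. One of the 9 other probes, the second of *Csf1r*, had an unadjusted p of 0.0206 at day 2 (-0.38, adjusted p = 1), and the third probe of *Csf1r* gave 0.26.

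At day 5 the difference was below 0 for 9 of 10 members, between -0.32 for *Mrc1* (95% interval -0.91 to 0.26) and 0.00 for *Trem2* (-0.35 to 0.36). In control DRGs 5 members were higher and 5 lower in KO, between -0.12 and 0.08. This too was not the same on each slide, since 7 of 10 were higher in KO controls on slide 1, 10 of 10 on slide 2 (0.16 to 1.06) and 1 of 10 on slide 3 (-0.90 to 0.03). On each slide at least 1 genotype had a single control. Slide 2 set WT control replicate 2 against KO control replicate 4, the sample with the conflicting label. Over the members the 95% intervals of the control difference reached from -0.70 to 0.58, so that equal levels were not shown either.

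**Figure D3:**
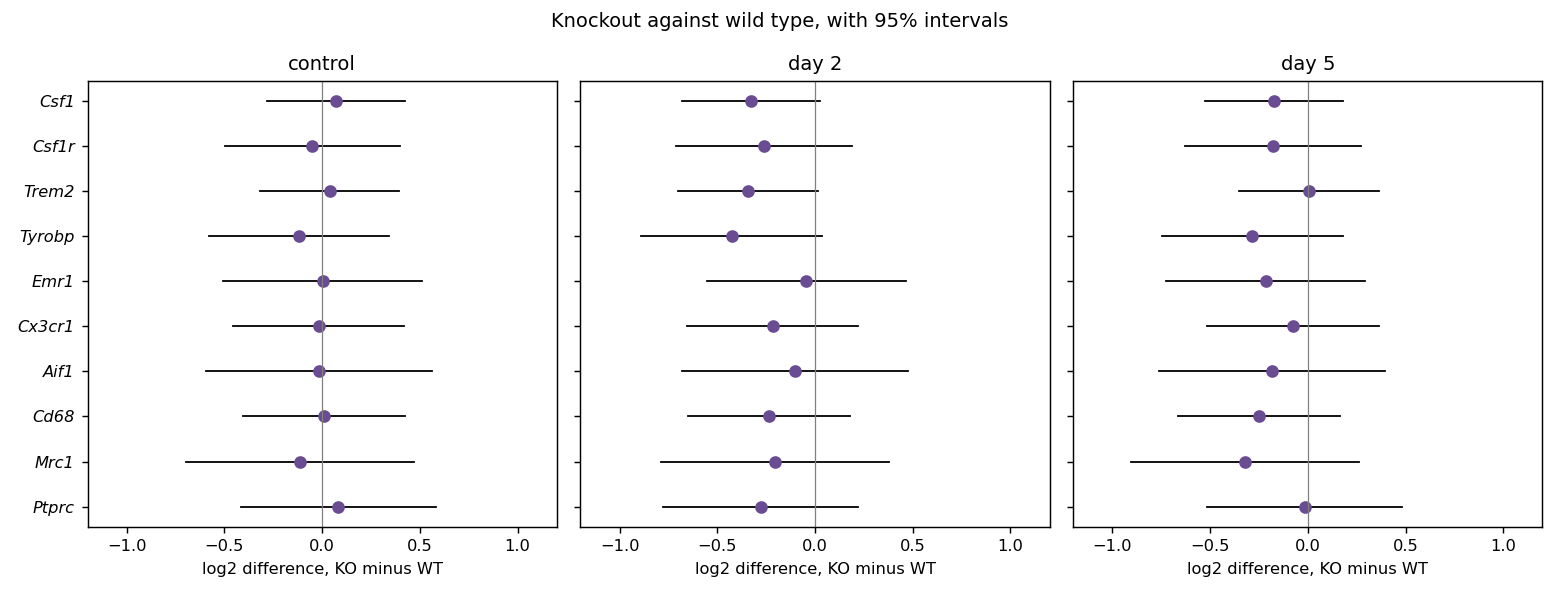
Log2 difference of KO minus WT for each member at the 3 time points, with 95% intervals from limma (4 samples per group). All intervals include 0, and at day 2 all 10 points lie to its left.

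Other ligands, receptors and binding partners of the myeloid growth factors formed a list of 14 genes on the array. Of these 4 were called higher at day 2 and 5 at day 5, and none lower. Beside this list 9.39% and 10.2% of all genes were called higher at these days, and 12.9% and 13% lower. *Il34*, the second ligand of CSF1R, rose by 0.42 at day 2 (adjusted p = 0.00601) and by 0.50 at day 5 (adjusted p = 0.00108). *Csf2rb*, the shared beta chain of the receptors for GM-CSF, IL3 and IL5, rose by 0.70 and 0.85, and its relative *Csf2rb2*, whose probe can share sequence with it, by 0.99 and 0.99. *Sdc1*, a heparan sulfate proteoglycan, rose by 2.49 and 2.96. *Csf2ra*, the alpha chain of the GM-CSF receptor, was the 1 further call, at day 5 (0.36). *Csf2* and *Csf3* stayed at background in every sample.

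Genes of TYROBP and immunoreceptor signaling followed the members at day 5. Of 23 on the array, 9 were called higher and 1 lower at day 2, and 16 higher and 0 lower at day 5, with a median of 0.33 and 0.81. The shares of all genes at these days were 9.39% and 10.2% higher, and 12.9% and 13% lower. *Fcer1g*, the Fc receptor gamma chain and the closest functional relative of TYROBP, rose by 0.85 and 1.70. *Clec5a*, a receptor that pairs with TYROBP, rose by 1.01 and 1.52, and the adaptor *Blnk* by 0.73 and 1.65. *Vav1*, an exchange factor downstream of these receptors, rose by 0.64 and 1.33. *Lcp2*, an adaptor of immunoreceptors, was the 1 gene called lower, at day 2 (-0.59). *Syk*, the kinase that binds the TYROBP motif, gave 0.23 at day 2 (adjusted p = 0.411) and rose by 0.81 at day 5 (adjusted p = 0.00179).

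Other macrophage and microglia markers numbered 48 on the array. At day 2, 19 were called higher and 5 lower, at day 5, 36 higher and 4 lower, and from day 2 to day 5, 29 higher and 0 lower, and their median change was 0.32 at day 2 and 1.21 at day 5. Beside them 9.39% of all genes were called higher and 12.9% lower at day 2, and 10.2% higher and 13% lower at day 5. For the step from day 2 to day 5, 2.32% of all genes were called higher. *Folr2*, a folate receptor of resident macrophages, gave 0.60 at day 2 (adjusted p = 0.0995) and rose by 2.65 at day 5, and *Ms4a7* gave 0.08 (adjusted p = 0.733) and rose by 2.15. *Fcrls* rose by 1.07 and 2.36, and *Ms4a6d*, not well above background in 2 of 8 controls, by 1.60 and 2.00. Among the genes lower at both days were *Coro1a* (-0.33 and -0.57), *Ly86* (-0.57 and -0.45) and *Slc2a5* (-0.96 and -0.92), and *Cd83* was lower at day 2 (-0.998). These 4 were singled out after their values were seen.

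**Figure D4:**
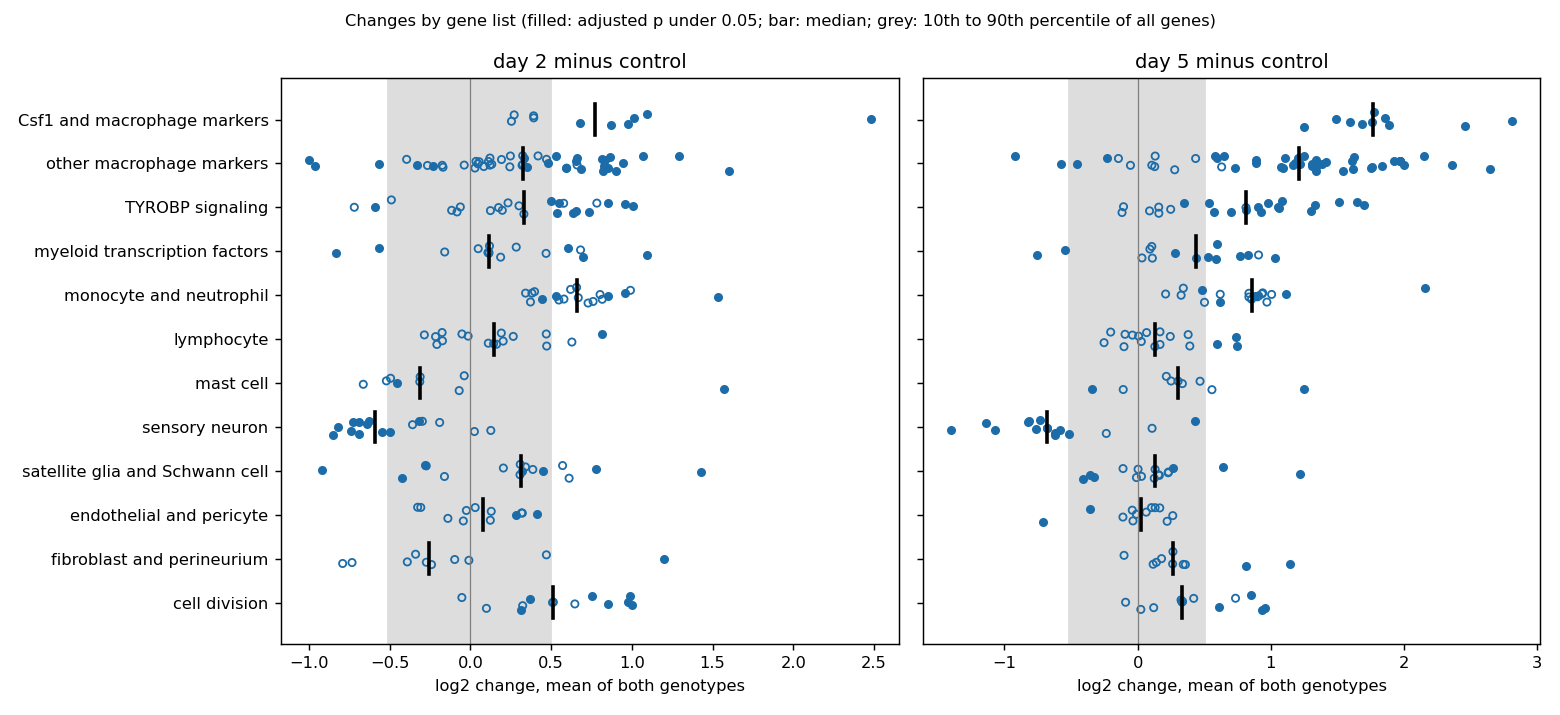
Log2 change at day 2 and day 5 (mean of genotypes) of each gene of the lists named on the left, with filled points for an adjusted p under 0.05, bars for list medians and a grey band from the tenth to the ninetieth percentile of all genes, -0.51 to 0.50 at day 2 and -0.51 to 0.51 at day 5. The members and other macrophage markers have medians of 1.77 and 1.21 at day 5, and sensory neuron markers have -0.68.

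Of 15 myeloid transcription factors, 3 were called higher and 2 lower at day 2, and 8 higher and 2 lower at day 5. Among all genes 9.39% and 10.2% were called higher at these days, and 12.9% and 13% lower. *Irf8*, a factor of monocytes and macrophages, gave 0.11 at day 2 (adjusted p = 0.753) and rose by 1.03 at day 5 (adjusted p = 0.000271). *Cebpb*, a bZIP factor that many cell types use, rose by 0.60 at both days, *Bhlhe41* rose by 1.09 and 0.77, and *Runx1*, which sensory neurons also express, was at -0.57 and -0.75, both called, as was *Runx3* at -0.83 and -0.55, another factor of sensory neurons. *Tfec*, well above background in 4 of 24 samples, was the other gene called higher at day 2. The gene of PU.1, listed on the array as *Sfpi1*, was well above background in 0 of 8 controls, in 1 of 8 samples at day 2 and in 4 of 8 at day 5. It was not called at day 5 over both genotypes (adjusted p = 0.204), in WT (1.71, adjusted p = 0.109) or in KO (0.11, adjusted p = 0.956).

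Genes of macrophage activation were mixed. Of 20, 7 were called higher at day 2 and 12 at day 5, and none lower. The shares of all genes called higher were 9.39% and 10.2%, and those called lower 12.9% and 13%. *Il6*, a cytokine that injured neurons also make, rose by 2.67 at day 2 and 2.03 at day 5, and its feedback inhibitor *Socs3* by 1.5 and 1.29. *Clec10a*, a lectin of alternatively activated macrophages, gave 0.12 at day 2 (adjusted p = 0.762) and rose by 1.93 at day 5. *Cd163*, the scavenger receptor for hemoglobin and haptoglobin, gave 0.66 (adjusted p = 0.069) and rose by 1.54. *Nos2*, *Ptgs2* and *Il10* did not rise above background in any sample.

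Of 14 ligands and partners of the member receptors, 4 were called higher and 4 lower at day 2, and 6 higher and 3 lower at day 5. Among all genes the shares were 9.39% and 10.2% higher, and 12.9% and 13% lower. *Cx3cl1*, the ligand of CX3CR1, fell by 0.49 at day 2 (adjusted p = 0.000302) and was at -0.10 at day 5 (adjusted p = 0.497). *Anxa1*, a phospholipid-binding protein of resolving inflammation, rose by 2.44 and 2.90. *Lgals1* rose by 0.58 and 1.12 and *Pros1*, a bridge between dying cells and phagocyte receptors, by 0.86 and 0.92. *Cd55*, the complement regulator and ligand of the EMR1 relative CD97, fell by 0.70 and 1.09. The others called were *Cd200* (0.46 and 0.34), the TAM receptor ligand *Gas6* (-0.42 and -0.32), *Apoe* at day 2 (-0.15), and at day 5 *Cd47* (-0.25), *Cd22* (0.58) and *Cd200r1* (0.77), the last well above background in 1 of 24 samples.

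Markers of other blood cells were read in the same way. Beside them 9.39% of all genes were called higher at day 2 and 10.2% at day 5, and 12.9% and 13% lower. Of 19 monocyte and neutrophil markers, 5 were called higher at day 2 and 5 at day 5, and none lower. *F13a1*, a marker of monocytes and some macrophages, rose by 1.53 and 2.16, *Ccr2*, the receptor that brings monocytes into tissue, by 0.44 and 1.11, *Ly6c2* by 0.85 and 0.62 and *Ly6c1*, also a marker of endothelium, by 0.96 and 0.48. *Chi3l1* rose at day 2 (0.53), and *Cxcr2* gave 0.76 (adjusted p = 0.0602) and rose by 0.88. The summed linear intensity of the 19 markers ran from 16100 to 45100 in controls, from 17500 to 99500 at day 2 and from 14000 to 95400 at day 5, so the days overlapped, and all 19 were well above background in some sample. Of 17 lymphocyte markers, 1 was called higher at day 2, *Cd79b*, and 3 at day 5, namely *Cd79b* (0.75), *Nkg7* (0.60) and *Gzmb* (0.74, well above background in 9 of 24 samples), and their sum ran from 19200 to 32500 in controls, from 15300 to 28400 at day 2 and from 15900 to 28900 at day 5. *Pax5* stayed at background throughout. Of 9 mast cell markers, *Hdc* rose at both days (1.57 and 1.25) and *Kit*, which neurons also express, fell (-0.45 and -0.34). Of 6 red blood cell markers none was called at either day. The part of these cells in the change of the members was not tested.

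Markers of the cells of the ganglion itself moved differently. Each list is to be read beside all genes, of which 9.39% were called higher at day 2 and 10.2% at day 5. The shares called lower were 12.9% and 13%. Of 16 sensory neuron markers, 0 were called higher and 11 lower at day 2, and 1 higher and 13 lower at day 5, the higher one being *Tubb3* (0.43), with *Scn11a* (-0.85 and -1.40), *Scn10a* (-0.74 and -1.14) and *Tac1* (-0.69 and -1.07) among the lower ones. Their summed intensity ran from 641000 to 771000 in controls, from 523000 to 609000 at day 2 and from 474000 to 613000 at day 5, below all controls at both days. Of 16 markers of satellite glia and Schwann cells, 4 were called higher and 3 lower at day 2 and 3 higher and 3 lower at day 5. *Gfap*, well above background in 2 of 8 controls, rose by 1.43 and 1.22, *Glul* rose by 0.77 and 0.64, and *Pmp22*, at day 2 alone, by 0.45. *Fabp7* fell by 0.92 and 0.36, and *S100b* gave -0.16 (adjusted p = 0.291) and fell by 0.41 at day 5, while *Gja1* fell at both days (-0.43 and -0.33) and *Kcnj10* at day 2 (-0.28). Of 12 endothelial and pericyte markers, *Esam* (0.41) and *Pecam1* (0.28) rose at day 2, and *Rgs5* (-0.71) and *Pdgfrb* (-0.36) fell at day 5. Of 10 fibroblast and perineurium markers, *Slc2a1* rose at both days (1.2 and 1.14) and *Lum* at day 5 (0.81). The part of these cells in the change of the members was not tested either.

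Of 13 cell division genes, 7 were called higher at day 2 and 5 at day 5, and none lower. Among all genes 9.39% and 10.2% were called higher, and 12.9% and 13% lower. *Mki67*, the common label of cycling cells, rose by 0.98 and 0.93, *Top2a* by 1.00 and 0.96, *Ccna2* by 0.99 and 0.85 and *Birc5* by 0.75 and 0.61. *Mcm5* was the fifth gene called at day 5 (0.33). *Mcm5*, a subunit of the replicative helicase, then fell by 0.52 from day 2 to day 5 (adjusted p = 0.0013), and the other 12 genes were not called. Which cells carried them cannot be told from whole DRGs.

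The genes whose log2 intensity ran closest to *Csf1* over the 24 samples were *Tubb6* (Pearson r = 0.9946), *Stmn4* (0.9943), *Prc1* (0.9933), *Camk1* (0.991) and *Sema6a* (0.9902). All 5 rose by 2.26 to 3.01 at day 2 and by 2.41 to 3.44 at day 5. Closest to *Csf1r* were *Emr1* (0.9779), *Ctss* (0.9758), *AF251705* (0.9751), *Pld4* (0.9698) and *Phyhd1* (0.9685), of which *AF251705* alone was called at day 2 (0.43, adjusted p = 0.0121) and all 5 at day 5. Closest to *Trem2* were *Fcrls* (0.9871), *Car1* (0.9803), *AF251705* (0.9719), *C1qb* (0.9713) and *Tnfaip8l2* (0.9711), all called at both days. These correlations describe 24 samples that share arrays and fall into control and lesioned groups, and no test was made on them. The 5 genes nearest to the ligand and the 5 nearest to its receptor had no gene in common.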

How the data were processed

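L4 and L5 DRG RNA of 24 samples was measured on 12 two-colour Agilent arrays, each channel holding another sample and being read on its own. The intensity files deposited by the authors are scanner output of Feature Extraction 10.7.3.1, with mean and median foreground, background, spot flags and gene names, not yet normalized. Background was subtracted from mean foreground by Edwards' method, log2 was taken, non-uniform and population outlier spots were set missing, 43379 non-control spots were quantile normalized over 24 channels and spots of a probe were averaged. After the values were available 4 orders of these steps were tried, and this one was kept because its *Nfil3* values equalled those of an earlier processing of these data. 2 of the others changed no call of a member, and leaving outlier spots out after normalization lost the call of *Cd68* from day 2 to day 5 (adjusted p = 0.0532).

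Means of 6 groups were fitted with limma 3.58.1 in R 4.3.3, with empirical Bayes moderation, Benjamini-Hochberg adjustment over 41174 probes and a threshold of 0.05. Changes over both genotypes are contrasts that weight WT and KO equally. A gene took the probe with the highest mean. Nothing in the labels says that controls and lesioned samples come from separate animals, and p-values measure the spread between these samples, whose number limits the precision. The members and the gene lists were chosen with earlier results of these data known. Of the listed symbols 5 were not found, and 4 were matched through synonyms. All members were named. From each list the 4 genes with the largest change at day 5 among those called and well above background in at least 12 samples were named, with *Il34*, *Spi1*, *Cx3cl1* and *Syk*. Genes named for a small count were chosen after their values were seen. The 5 genes nearest to *Csf1*, *Csf1r* and *Trem2* came from probes well above background in all 24 samples. In simulated data for WT day 5 minus control, 50 probes each were changed by 0.5, 1, 1.5 and 2.5 log2 units. They were drawn at random from 40895 probes, those at background included. The fit recovered 22%, 52%, 66% and 74% of them and called 5 of 40695 unchanged probes. Fewer probes changed there than were called in the data, which makes the adjusted threshold stricter. The shares therefore do not hold for the members, which were well above background. Alternatives changed the background correction, normalization, outliers, probe rule, covariates and samples. RefSeq promoters were matched by symbol, and protein sequences were not used here. Some genes counted in the lists are not reported here by name.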

Additional observations from a re-analysis of the deposited data

Results flagged for a closer look

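Within the 60 groups of 4 samples formed by 10 members and 6 groups, 2 samples stood far from the other 3 of their group by Dixon's criterion, which chance passes in about 1 in 20 groups. *Aif1* in WT control replicate 4 was 9.778, above the other WT controls at 8.74 to 8.86. This control shared its array with a lesioned sample and had the lowest share of probes well above background (54.5%). *Emr1* in KO control replicate 2 was 7.467, below the other KO controls at 8.29 to 8.46.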

How the results depend on the processing

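All 10 members were called higher at day 5 in WT and in KO under every alternative fit to all slides. None was called for KO against WT in any. Within slides, where few samples are left, slide 1 gave 0 called members for WT day 5, 0 for KO day 2, 3 for KO day 5, 0 for KO day 5 against day 2 and 9 for day 5 over both genotypes. Slide 2 gave 0 for WT day 2, 0 for KO day 2, 0 for KO day 5, 0 for KO day 5 against day 2 and 1 for day 2 over both genotypes. Slide 3 gave 1 for WT day 2, 5 for WT day 5, 0 for KO day 2, 0 for WT day 5 against day 2 and 4 for day 2 over both genotypes. With 1 sample left out at a time the called members numbered 4 to 6 for WT day 2, 10 to 10 for WT day 5, 3 to 5 for KO day 2, 10 to 10 for KO day 5, 4 to 5 and 4 to 6 for day 5 against day 2 in WT and KO, and 6 to 8, 10 to 10 and 6 to 9 for day 2, day 5 and day 5 against day 2 over both genotypes. They were 0 to 0 for KO against WT at each time and for the interaction. From day 2 to day 5, *Cd68* lost its call with processed signals (0.0631), outliers kept (0.0534), probes averaged (0.051), dye as covariate (0.0551) and slide as a block (0.106), and *Aif1* with median foreground (0.0505) and array partner as a block (0.0522). Across all alternatives the changes of single members lost a call 154 times and gained one 37 times. No called change turned sign, but changes that were not called did, 8 times for KO day 2 (6 of them within a slide), and 59, 13 and 17 times for KO minus WT in control, at day 2 and at day 5. Among 19 alternatives that keep all slides and replicates, *Tyrobp* in WT and *Ptprc* in KO were each called from day 2 to day 5 in 8 (lowest adjusted p 0.0154 and 0.0162). The cause was not tested.

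The labels number replicates 1 to 4 in each group. In every group replicates 1 and 2 were labeled with Cy3 and replicates 3 and 4 with Cy5. Same-numbered samples correlated in their deviations from the group means by -0.0641 to 0.208 over 60 pairs (median 0.0701), with 13 above 0.1. Pairs of the same dye with different numbers gave -0.116 to 0.205 over 60 pairs (median 0.0479), also with 13 above 0.1. Of 24 samples 11 correlated best with their own number, so the numbers were not taken as pairs. With the replicate number as a block the called members were 6 at day 2 and 10 at day 5 in WT, 4 and 10 in KO, 6 and 10 over both, 5 for day 5 against day 2 in each genotype (*Tyrobp* gained in WT, 0.0383) and 8 over both (*Aif1* lost, 0.0537).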
